A study of Ovis aries and Mus musculus with 20 samples.

Results

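The greater omentum fat (GOM) and the mesenteric adipose tissue (MAD) of sheep were compared by RNA-seq, with each GOM library set against the MAD library of the same animal. These 6 libraries, 3 of each depot, were taken by the tissue and the animal number in their titles, out of 20 samples in the series, 9 of which are RNA-seq. The animals were 3 adult female Small-tail Han sheep of 2 years, fed freely and fasted before they were killed, and their labels give no treatment. The remaining 3 RNA-seq libraries, from the retroperitoneal adipose tissue (RAD) of the same sheep, entered the statistical model and are given where they bear on the comparison. Each library came from a piece of whole tissue, so a level is that of all cells in the piece, and fewer cells of a type cannot be told apart from less RNA per cell.

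Both depots are visceral fat that stores triglyceride and lies within folds of the peritoneum. The greater omentum is an apron of fat that hangs from the stomach, is covered by mesothelium and holds small clusters of immune cells known as milky spots. Mesenteric fat surrounds the vessels that run to the intestine and can enclose lymph nodes and lymphatic vessels. The sources used here do not pair the sheep gene identifiers with gene names or sequences, so markers of adipocytes, mesothelium or lymph node could not be looked up, the depot labels could not be checked against them, and the parts of these cell types in the differences were not tested. Genes are described below by their level, their size of change and their behaviour among animals, and 4 are given by identifier.

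The sum of estimated counts was 16298240 to 22249680 in GOM and 14305713 to 19966047 in MAD. Within a sheep the depots differed in this sum, most in sheep 2, with 22249680 in its GOM and 14305713 in its MAD. In sheep 1 and 3 GOM had the smaller sum. The 10 most abundant genes took 13.4% ± 1.48 of the transcript abundance (TPM, corrected for gene length and depth) in GOM and 12.8% ± 1.54 in MAD (SD, *n* = 3 each), and the ranges of the depots overlapped. The level of each gene below is in CPM, counts relative to library size after TMM scaling, which corrects for differences in the make-up of the libraries.

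GOM and MAD differed in the expression of 1567 of 14565 genes tested (10.8%). More genes were higher in GOM than lower: 963 (6.61%) were higher and 604 (4.15%) lower. The genes higher in GOM also differed by more, with a median of 3.10-fold (log2 fold change 1.63, quartiles 1.12 and 2.35), whereas the genes lower in GOM had a median of 2.05-fold (log2 fold change -1.04). The higher genes also had larger standard errors, with a median of 0.284 against 0.212. A gene with a larger standard error must differ by more to be called, and the part of this in the medians was not tested. A difference of at least 2-fold was found in 790 of the higher genes and 327 of the lower ones, together 7.67% of genes tested. At 4-fold or more these numbers were 341 and 78, and at 8-fold or more 120 and 31. A gene was called when its *p* from the quasi-likelihood test of edgeR, adjusted over all genes tested by the Benjamini-Hochberg method, was under 0.05, in a model with the animal as a block. The median log2 fold change of all genes tested was -0.02.

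Called genes had the same direction in all 3 sheep, which selection on these libraries favours. In 911 of the higher and 482 of the lower genes the 3 GOM libraries did not overlap the 3 MAD libraries at all. Among all genes tested, 12.8% had every GOM library above every MAD library and 10.6% every GOM library below. At an unadjusted *p* under 0.05 the same edgeR model had 3715 genes (25.5%).

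**Figure D1:**
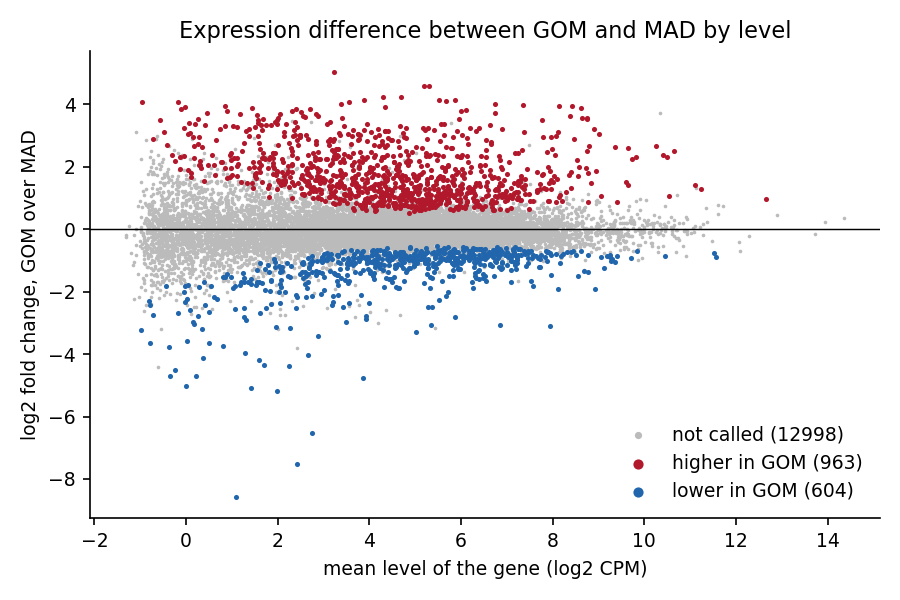
Log2 fold change of GOM over MAD from edgeR against the mean log2 CPM of each of 14565 genes; red points are the 963 genes higher in GOM, blue points the 604 lower, and grey points the genes not called. The red points reach farther from 0 than the blue ones over most of the range of levels, apart from a few weakly expressed genes lower in GOM.

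The number of called genes depended on the libraries. It was 798 without GOM replicate 2, 260 without GOM replicate 3, 809 without MAD replicate 1 and 563 without MAD replicate 2, against 1582 without GOM replicate 1 and 1123 without MAD replicate 3. The lower genes numbered 384 without MAD replicate 3. Without the 3 libraries of sheep 1 it was 1519, without those of sheep 2 it was 430 and without those of sheep 3 it was 0, although 2707 of 14671 genes (18.5%) then had an unadjusted *p* under 0.05 from edgeR. No other tool was run on those subsets. In a model without the animal 966 genes were called, 731 higher and 235 lower in GOM (75.7% higher, against 61.5% with the animal), and 960 of the 966 were among the 1567.

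The difference was found at every level of expression. When the genes tested were divided into 5 groups of equal size by their mean level, the weakest group (0.404 to 4.37 CPM) had 131 genes higher and 87 lower in GOM, 7.48% of its 2913 genes. The groups above it had 12.4%, 11.3% and 10.3% called, and the strongest group (71.7 to 20958 CPM) 12.3%, with 193 genes higher and 165 lower. Higher genes outnumbered lower ones in each group, most in that from 4.37 to 15.2 CPM (241 against 120) and least in the strongest. The median log2 fold change of the higher genes was 2.28 in the weakest group and 1.45 in the strongest, and that of the lower genes was -1.97 and -0.89. Weak genes are called only when they differ widely, so these medians are not a measure of how far weak genes differ as a group.

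Few genes were expressed in one depot and near absent from the other. Of the called genes, 1263 (80.6%) had a TPM of at least 1 in all 6 libraries, close to the 83.0% of all genes tested. A TPM of at least 1 in every GOM library and under 0.5 in every MAD library was found for 19 genes, of which 18 were called. The reverse, at least 1 in every MAD library and under 0.5 in every GOM library, was found for 18 genes, of which 14 were called. When the upper limit was set at 0.1 TPM, 1 gene was left for GOM and 4 for MAD.

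Among the genes that differed by 2-fold or more, the 2 with the highest mean level in each direction are described one by one. ENSOARG00020017657 ranked 19 by level among all genes tested. It had 3673, 2448 and 5016 CPM in the GOM of sheep 1, 2 and 3, against 1871, 923.5 and 1699 CPM in their MAD. The GOM libraries lay above the MAD libraries without overlap, and the log2 fold change was 1.29 (standard error 0.26, adjusted *p* = 0.0174 from edgeR). RAD had 1529, 1291 and 3291 CPM, of which sheep 1 and sheep 2 fell within the range of MAD. The edgeR adjusted *p* was 0.119 without the block and 0.0610, 0.0941, 0.0940 and 0.0513 without GOM replicates 2 and 3 and MAD replicates 2 and 3. Without all libraries of sheep 2 or of sheep 3 it was 0.190 and 0.142.

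ENSOARG00020019196 had 1891, 3708 and 3184 CPM in the GOM of sheep 1, 2 and 3, against 895.3, 920.7 and 1563 CPM in their MAD. Its GOM libraries did not overlap the MAD libraries either, but the lowest GOM value, that of sheep 1, lay only a little above the highest MAD value, that of sheep 3. The log2 fold change was 1.40 (standard error 0.30, adjusted *p* = 0.0237 from edgeR). All 3 RAD libraries, at 2862, 1959 and 2976 CPM, lay above the MAD libraries. Without the block the call held with RAD in the model (adjusted *p* = 0.0433 from edgeR) but not on the GOM and MAD libraries only (0.0824). The call was lost without GOM replicates 2 and 3 and MAD replicates 1 and 2 (edgeR adjusted *p* = 0.0794, 0.104, 0.0902 and 0.123). It was also lost without all libraries of sheep 2 or of sheep 3 (0.213 and 0.141).

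ENSOARG00020022200 was the strongest gene lower in GOM by at least 2-fold. It was at 610.0, 515.1 and 289.5 CPM in the GOM of sheep 1, 2 and 3, against 1015, 917.6 and 876.7 CPM in their MAD. The MAD values lay close together, while the GOM value of sheep 3 was the lowest of the 6. The log2 fold change was -1.06 (standard error 0.24, adjusted *p* = 0.0256 from edgeR). RAD was at 831.0, 478.2 and 382.8 CPM, all below the MAD libraries. Without the block the edgeR adjusted *p* was 0.134, and it was 0.0559, 0.164, 0.106 and 0.0728 without GOM replicates 1 and 3 and MAD replicates 2 and 3. Without all libraries of sheep 2 or of sheep 3 it was 0.1502 and 0.2315.

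ENSOARG00020011714 was at 424.2, 663.0 and 304.7 CPM in the GOM of sheep 1, 2 and 3, against 751.2, 1198 and 839.9 CPM in their MAD. Sheep 2 had the highest value in both depots, and its GOM came near to the MAD of sheep 1, but the depots did not overlap. The log2 fold change was -1.04 (standard error 0.21, adjusted *p* = 0.0173 from edgeR). RAD was at 336.4, 663.0 and 411.2 CPM, close to GOM and again highest in sheep 2. The edgeR adjusted *p* was 0.141 without the block and 0.106, 0.0646, 0.0682 and 0.0503 without GOM replicate 3 and MAD replicates 1, 2 and 3. Without all libraries of sheep 2 or of sheep 3 it was 0.139 and 0.170.

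**Figure D2:**
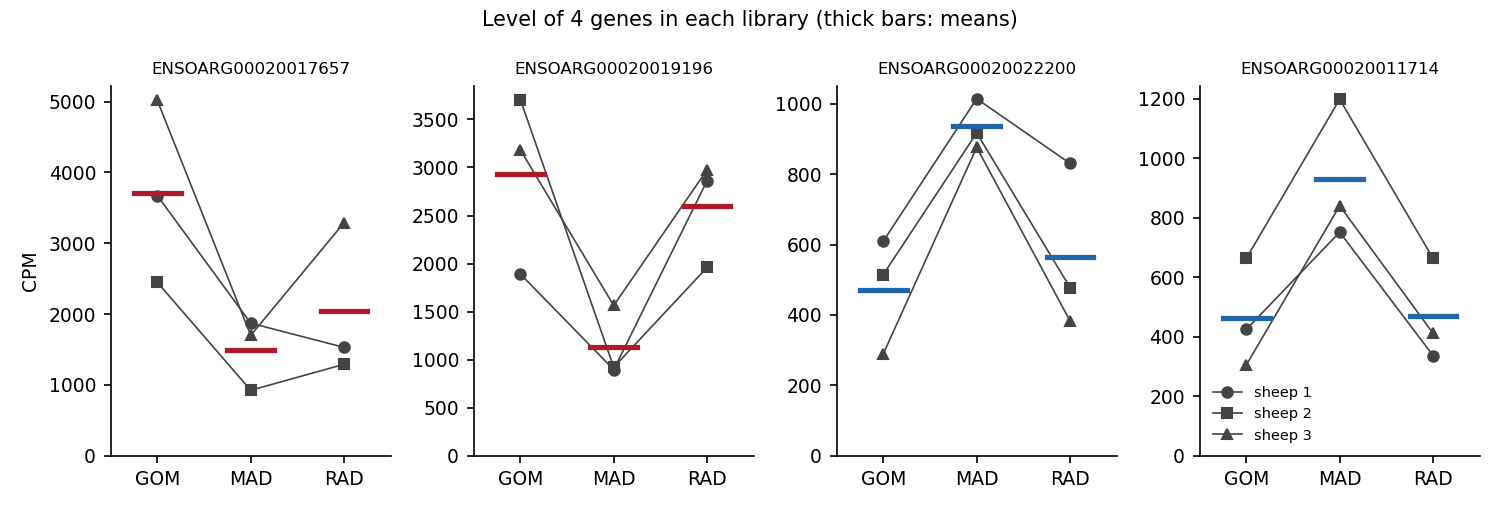
CPM of 4 genes in the GOM, MAD and RAD library of each sheep, joined by lines; thick bars are the means of 3 libraries. In the 2 genes on the left every sheep has more in GOM than in MAD, and in the 2 on the right less.

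The size of the difference varied among the animals, and most among the genes higher in GOM. The difference in log2 CPM between the GOM and the MAD of 1 sheep had a standard deviation over the 14565 genes of 0.707 in sheep 1, 1.03 in sheep 2 and 0.847 in sheep 3. At least 2-fold apart were 1493, 3031 and 2420 genes in these sheep. Over the 963 higher genes the median difference was 1.11 in sheep 1, 2.02 in sheep 2 and 1.56 in sheep 3. Sheep 2 had the largest difference of the 3 sheep in 721 of these genes (74.9%), and sheep 1 the smallest in 680.

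The genes lower in GOM were more even among the animals, with medians of -0.87, -1.11 and -1.16 in sheep 1, 2 and 3. Sheep 3 had the largest difference in 258 of the 604 genes (42.7%) and sheep 2 in 224 (37.1%). The higher genes also varied more among the GOM libraries than among the MAD libraries, with a median SD of log2 CPM of 0.473 and 0.346, whereas the lower genes had 0.380 in GOM and 0.380 in MAD. Over all genes tested the median SD was 0.314 in GOM and 0.325 in MAD. Across genes, the differences of sheep 1 and 2 correlated at a Pearson's *r* of 0.659, those of sheep 1 and 3 at 0.582 and those of sheep 2 and 3 at 0.595. By rank the correlations were lower, with a Spearman's rho of 0.619, 0.447 and 0.479 for these pairs. The differences had the same sign in 73.7%, 63.4% and 65.3% of genes. Genes are not independent of each other, and each difference rests on 2 libraries.

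**Figure D3:**
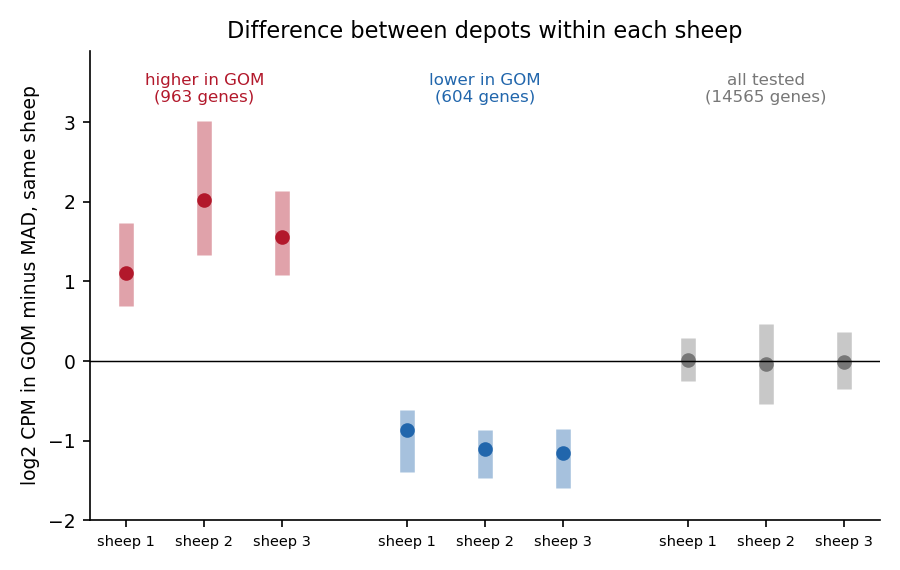
Difference in log2 CPM between the GOM and the MAD of the same sheep, for the genes higher in GOM, lower in GOM and all genes tested; points are medians and bars run between the quartiles over genes. Among the higher genes the median is 1.11 in sheep 1, 2.02 in sheep 2 and 1.56 in sheep 3.

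The direction of the difference was next examined in an animal that had not been used to pick the genes. For this, all libraries of 1 sheep were set aside, the 500 genes per direction with the smallest *p* were taken from the edgeR model of the other sheep, and the GOM and MAD of the sheep set aside were compared. Of the genes taken as higher in GOM, 494, 475 and 495 of 500 (98.8%, 95.0% and 99.0%) were also higher in the GOM of sheep 1, 2 and 3, against 51.6%, 47.5% and 49.2% of all genes tested. Of the genes taken as lower, 478, 481 and 480 (95.6%, 96.2% and 96.0%) were also lower, against 48.3%, 52.4% and 50.7% of all genes.

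The median differences in the sheep set aside were smaller than in the sheep that chose the genes, except for the higher genes in sheep 2. The measures were not alike: a difference in log2 CPM in the sheep set aside, and the log2 fold change from edgeR in the others. The prior count in log2 CPM makes differences smaller. For the 963 called higher genes the edgeR median was 1.63, and the log2 CPM medians were 1.11, 2.02 and 1.56 in sheep 1, 2 and 3. For the 604 lower genes these were -1.04 against -0.87, -1.11 and -1.16. The genes here were also taken for a small *p* in the other sheep. The parts of the measures and of this choice in the gaps were not tested. In sheep 1 the median log2 difference of the higher genes was 1.28 (2.25 in the other sheep), in sheep 2 it was 2.38 (1.95 in the others) and in sheep 3 it was 1.88 (2.24 in the others). That of the lower genes was -0.73, -1.09 and -0.98, against -1.19, -1.18 and -1.11 in the others. Sheep 1 had the smallest medians in both directions. The genes of a library are not independent, so the shares have no test, and the use of 500 genes was chosen after seeing the data.

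**Figure D4:**
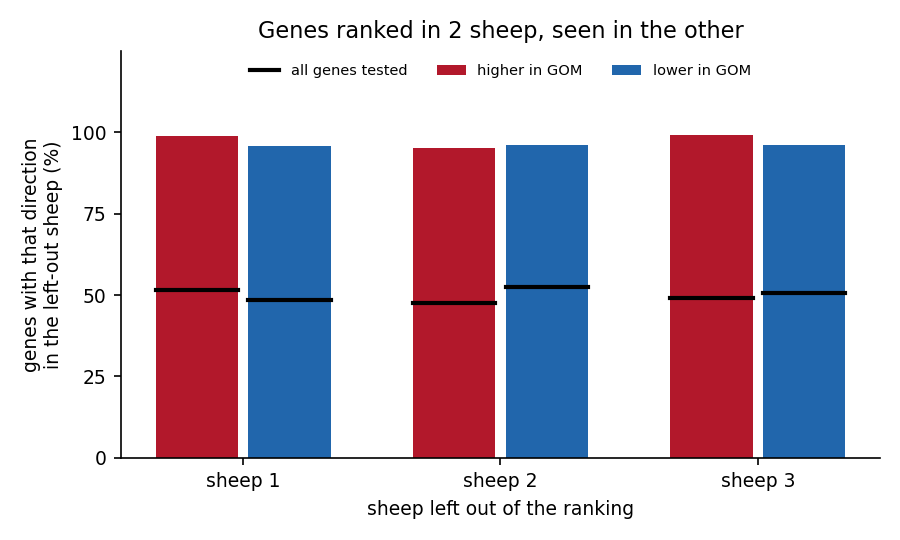
Percent of 500 genes per direction, ranked by edgeR in 2 sheep, that had the same direction in the sheep left out; black lines give the percent of all genes tested with that direction in that sheep. All 6 bars lie between 95.0% and 99.0%, and the black lines between 47.5% and 52.4%.

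Beside the depot, the animals themselves differed. In the same edgeR model 469 of 14565 genes (3.22%) differed between the 3 sheep, and 104 of these were also called between GOM and MAD. These were 22.2% of the genes that differed between sheep, against 10.8% of all genes tested, and 6.64% of the genes called between GOM and MAD, against 3.22%. Both tests used the same libraries and the same estimate of spread for each gene, so the overlap is a description. The test between sheep compares all 3 at once, and the like test over all 3 depots called 970 of 14565 genes. The variance of log2 CPM over the 6 libraries was divided for each gene into parts for the depot, the animal and the rest. The animal took a median of 48.0% of it, with 2 of the 5 degrees of freedom, and the depot 23.4% with 1. The rest, with the other 2 degrees of freedom, took 15.8%.

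The called genes made up a modest part of the transcriptome. The 963 genes higher in GOM carried 7.02%, 10.2% and 9.12% of all TPM in the GOM of sheep 1, 2 and 3, against 3.54%, 2.66% and 3.02% in their MAD. The mean was 8.77% ± 1.60 in GOM and 3.07% ± 0.442 in MAD (SD, *n* = 3 each). The 604 genes lower in GOM carried 1.90% ± 0.191 in GOM and 4.16% ± 0.192 in MAD. These genes were picked for their difference, so the sums are a description. The RAD libraries were not part of the contrast, but they entered the model that called these genes. In the RAD of sheep 1, 2 and 3 the higher genes carried 7.60%, 6.73% and 7.18% of TPM, and the lower genes 2.29%, 2.49% and 2.85%.

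**Figure D5:**
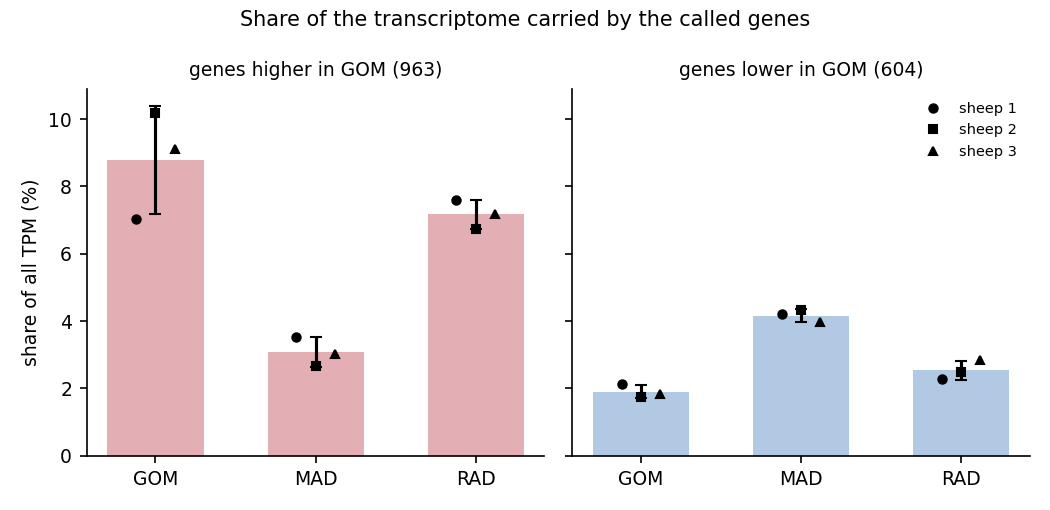
Percent of all TPM carried by the 963 genes higher and the 604 genes lower in GOM, in each library; bars are means, error bars are SD (*n* = 3) and points are sheep. RAD is shown for reference, at 7.17% for the higher and 2.54% for the lower genes.

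RAD was nearer to GOM than to MAD in the higher genes. To keep RAD out of the choice of genes, the model was also fitted on the GOM and MAD libraries only, which called 976 genes higher and 519 lower in GOM, of which 976 and 517 were also tested in the model of all 9 libraries. The mean log2 CPM of RAD was nearer to that of GOM than to that of MAD in 903 of the 976 higher genes (92.5%) and in 334 of the 517 lower genes (64.6%), against 64.4% of all 14303 genes compared. The share among the lower genes was close to that of all genes, and was 69.1% on log2(TPM + 1), against 66.1% of all genes. On a scale on which MAD is at 0% and GOM at 100%, the median of RAD was 82.5% (quartiles 72.9% and 90.6%) for the higher genes and 60.2% (39.9% and 80.7%) for the lower ones. Genes chosen for a large difference between GOM and MAD tend to have a further group of samples between them, so these positions are not a test of likeness.

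The genes higher and lower in GOM are described by their length, which is not independent of the calls, since it sets the count of a gene at a given TPM. A length for each gene, relative to the median of the genes tested, follows from the ratio of its count to its TPM. The genes lower in GOM had a median of 1.25 times that of all genes tested, and 61.1% of them were longer than the median gene. The genes higher in GOM had a median of 0.941, and 47.9% were longer than the median gene. Among genes with at least 10 counts in all 6 libraries the share longer than the median gene was 60.8% of the lower and 48.0% of the higher genes. The part of count depth in this was not tested further.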

How the data were processed

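Sheep RNA-seq libraries had been made from rRNA-depleted total RNA with a directional kit. The authors deposited estimated counts and TPM of 20477 genes from kallisto (0.43.0 in the submitters' processing notes, a later version in the paper's methods), with the Ensembl annotation of Oar_rambouillet_v1.0. Between any 2 libraries the ratio of count to TPM was the same, to within rounding, for every gene above 1 TPM, so the deposited estimated counts are TPM multiplied by 1 length per gene and 1 factor per library, not reads assigned to genes. Their sums were 14305713 to 22249680 in GOM and MAD, and whether these match the reads of each library could not be checked. Neither the counts nor the TPM show which reads were shared between genes, so the levels of close paralogs are uncertain and were not tested. Hi-C files were not used here.

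Counts were rounded to whole numbers. edgeR 4.0.16 in R 4.3.3 was used with TMM scaling, its filter on low counts (14565 genes kept) and its quasi-likelihood test, on the 9 libraries with depot and animal as terms and 4 residual degrees of freedom. Log2 fold changes are GOM over MAD, and log2 CPM has a prior count of 2. The standard errors given were worked back from the fold change and its *p* with a t distribution, so they add nothing to that *p*. The titles number the sheep, and the same number was taken as the same animal. Deviations from the depot means correlated at 0.580, 0.370 and 0.539 between GOM and MAD of the same sheep. Between those of different sheep they correlated at -0.474 to 0.002. Deviations cancel over the libraries of a depot, so positive values for the same sheep push those between different sheep to negative values. On simulated data for all 9 libraries, 195 of the 14401 genes tested were changed. The same edgeR model with the animal as a block recovered 35.7% of 2-fold and 86.6% of 4-fold changes between GOM and MAD. It made 9 false calls among 128. The simulation had no differences between animals and a smaller share of changed genes than the 10.8% called here, so its rates need not hold for these data. Alternatives were DESeq2 1.42.0 on the counts and limma 3.58.1 on log-transformed TPM with a pseudocount of 1 or 0.1. Python 3.11.15 with numpy 2.4.6, scipy 1.17.1, pandas 2.3.3 and matplotlib 3.10.9 served for summaries.

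The libraries, lists and tests were chosen with earlier results of these data known. Genes were named by a rule for files without gene names: per direction, the 2 with the highest mean level among genes past the threshold, at least 2-fold apart and of like direction in every sheep. Lists of pathway and cell type genes could not be matched to the identifiers and were not used.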

Additional observations from a re-analysis of the deposited data

How the results depend on the processing

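Direction held for the 4 named genes under all 80 combinations with an alternative, and 48 stayed past the threshold. These genes were chosen for a like direction in every sheep of the same data, so their direction could hardly change. Fewer genes were called between GOM and MAD without the replicate block (966, of which 235 were lower in GOM) and on the GOM and MAD libraries without the replicate block (584; 480 higher, 104 lower, 561 at least 2-fold). limma on log2(TPM + 1) with no filter, over 19288 genes, called 842 (559 higher, 283 lower, 616 at least 2-fold). DESeq2 called 2276 genes, 963 of them lower in GOM, and 1553 were shared with edgeR's 1567. With each library or sheep left out in turn, the calls ranged over 0 to 1582, the higher over 0 to 1040, the lower over 0 to 542 and those of at least 2-fold over 0 to 1305. On log2(TPM + 1), RAD was nearer to GOM in 69.1% of the lower genes (66.1% of all genes), and the median log2 fold change of all genes was -0.10 with limma on the filtered genes. The cause of these differences was not tested. RLE size factors, library totals, a stricter or no filter on counts, and limma on filtered TPM left each count within 1.5 times. An offset for effective length and a restriction to genes with whole counts were not run, since the counts hold 1 length per gene and no gene above 0 in all 9 libraries has whole counts in all of them (within 1e-06). With 3 sheep, most 2-fold differences were missed in a simulation that had no differences between animals and few changed genes. That rate need not hold for these data, but a gene not called is not shown to be alike in the depots.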
